A study of Mus musculus with 9 samples.

Results

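The comparison described here is that of prostates from Srd5a2-null mice (KO) with prostates from heterozygous mice (Het), across all genes of the deposited count table. It rests on 6 libraries, the 3 named as KO and the 3 named as Het, out of 9 in the series. The other 3 libraries are wild type (WT) and were used to place each difference. The line started from heterozygous males and C57BL6 females that were wild type, and heterozygous offspring were bred on until null males were born. Het animals carry 1 working allele and KO animals none, and the labels name no tissue-restricted deletion and no treatment. The age of the mice, the lobes taken, how the null allele was made and which exons it lacks were not stated in the labels or the design text. Nothing in the labels ties each library to an animal of its own, so a p-value here reflects spread between samples that could be technical.

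Srd5a2 encodes the type II steroid 5-alpha-reductase, which turns testosterone into dihydrotestosterone, the more potent androgen. In the prostate the enzyme is known mainly from stromal cells, and dihydrotestosterone acts on both stroma and epithelium to keep the gland growing and secreting. Type I 5-alpha-reductase, encoded by Srd5a1, can make the same hormone. By its title, the series concerns SRD5A2 of the stroma, growth of the prostate and signalling by WNT5A, LEF1 and IGF1. KO against Het asks what the loss of the remaining allele adds, and the WT libraries show whether a difference sets the KO libraries or the Het libraries apart.

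Poly(A)-selected RNA gave total counts of 16233392 to 24017791 reads per library. The 3 Het libraries stood apart from the KO libraries in how low counts were distributed. At equal depth 16845 to 17756 genes had a read in the Het libraries, 20098 to 20380 in the KO libraries and 17877 to 20394 in the WT libraries. Of 2392 genes averaging 1 to 3 CPM (read counts scaled to a common library size), 10.9% to 12.6% had 0 reads in each Het library, against 0.125% to 0.962% in the KO libraries and 1.88% to 7.53% in WT. Only 575 to 1152 genes had 1 to 4 reads in a Het library, fewer than the 1442 to 1539 with 10 to 19 reads. The KO libraries had 2274 to 2591 genes at 1 to 4 reads and 1518 to 1628 at 10 to 19 reads. WT library 3, with 862 and 1554 genes, resembled the Het libraries in this, and WT libraries 1 and 2 (3062 and 1770 genes at 1 to 4 reads) did not. These features move with genotype, and their part in the results, above all in genes with 0 reads in the Het libraries, was not tested. Sbp, which encodes a secreted protein of the ventral prostate, was at 7.26 CPM in Het library 2 and at 0.994 and 16 CPM in WT libraries 1 and 3, against 34372 to 143989 CPM in the other 6.

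Srd5a2 (ENSMUSG00000038541, chromosome 17, 74016955 to 74047916, minus strand, GRCm38) was lowest in the libraries labelled KO. It stood at 0.934, 0.512 and 1.15 CPM in KO libraries 1 to 3 and at 3.68, 5.19 and 2.37 CPM in Het libraries 1 to 3. WT libraries held 2.3, 5.5 and 8.81 CPM. The KO range lay below both others, and the Het range lay inside the WT range. The log2 fold change in KO against Het was -2.11 (SE 0.61, 95% interval -3.47 to -0.74, n = 3 per group), and the edgeR adjusted p was 0.64. With the seminal vesicle score it was -3.19. On the per-length scale of the deposited FPKM values, Srd5a2 averaged 0.526 ± 0.195 in KO and 2.33 ± 0.886 in Het (SD, n = 3 each). Reads that remain on the gene in KO, 48 over the 3 libraries, cannot be assigned to a part of it in a table of gene counts. Prostate luminal markers were present in all 6 libraries. The luminal keratin gene Krt8 stood at 462 to 515 CPM in KO and 428 to 549 CPM in Het, and the prostate homeobox gene Hoxb13 at 258 to 323 CPM in KO and 45.1 to 529 CPM in Het, lowest in the Het library low in Sbp. Smooth muscle and basal markers were present as well, with Acta2 at 468 to 2594 CPM and Krt5 at 41.3 to 154 CPM over the 6 libraries.

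Whether any gene passed in KO against Het depended on the tool. The edgeR quasi-likelihood test called 0 of 16836 genes (0%) at a Benjamini-Hochberg adjusted p under 0.05, and the lowest adjusted p, 0.311, was shared by 6 genes, Mcpt4, Clca1, Plvap, Hba-a1, Clec3b and Cma1. At an unadjusted p under 0.05 edgeR had 1048 genes (6.22% of those tested), 744 higher in KO (4.42%) and 304 lower (1.81%). Limma voom also called 0. DESeq2 called 179 of 19727 genes (0.907%), 170 higher in KO (0.862%) and 9 lower (0.0456%), and voom with library quality weights called 319 (1.89%), 245 higher and 74 lower. The DESeq2 and voom calls shared 53 genes, which were 29.6% of the DESeq2 calls and 16.6% of the voom calls. Of the DESeq2 calls, 171 were also tested in edgeR (162 higher, 9 lower), and 58 of the 162 had 0 reads in all 3 Het libraries. Without regard to a test, all KO libraries lay above all Het libraries for 1313 genes (7.80%) and below them for 694 (4.12%). So the difference between KO and Het was mostly on the higher side by each count, and it was called or not called according to the tool. Leaving out Het library 1 changed the edgeR count to 18 (14 higher, 4 lower), among them Clca1, Mcpt4 and Hba-a1.

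**Figure D1:**
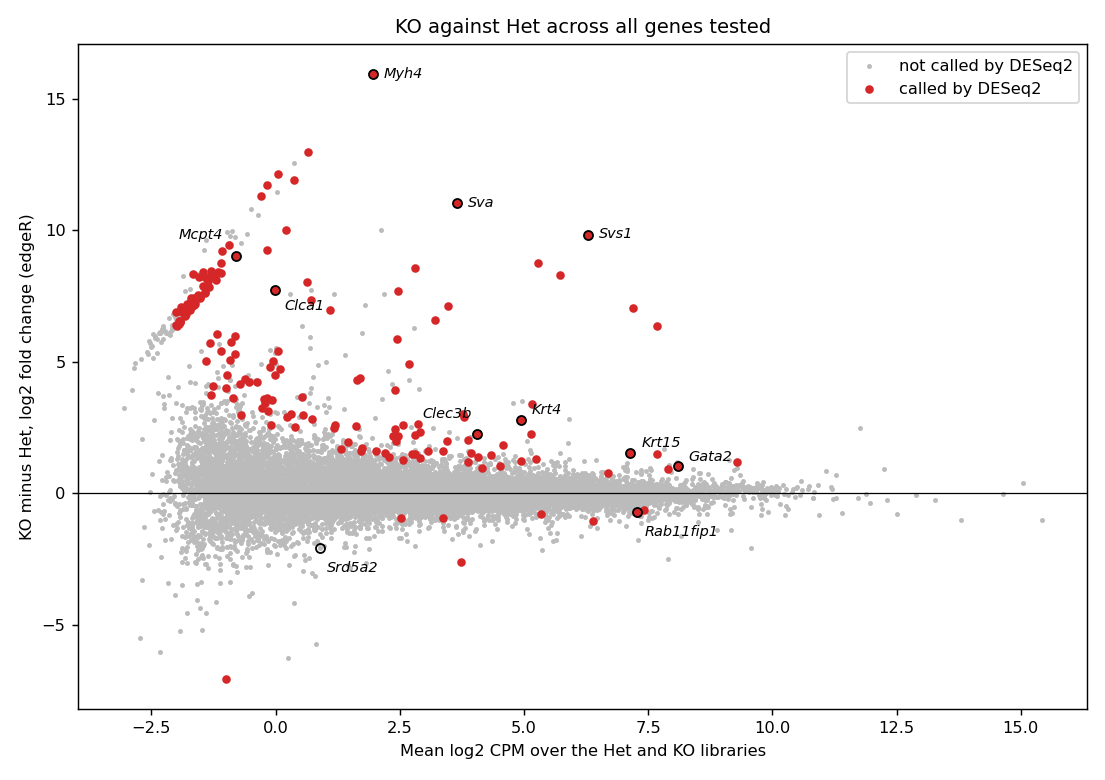
Log2 fold change of KO against Het (vertical axis, edgeR) against the mean log2 CPM over the 6 Het and KO libraries (horizontal axis), 1 point for each of 16836 genes. Red points are the 171 genes tested in both tools that DESeq2 called, 162 of them above 0, and black rings mark the genes with labels. The narrow line of points at the upper left consists of genes with 0 reads in all 3 Het libraries.

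A minority of the differences set the KO libraries apart from both Het and WT. Higher in KO were Clca1 of mucous cells, Krt4 and Krt15 of stratified and basal epithelium, the IGF-binding protein genes Igfbp3 and Igfbp5, and Timp1, by 1.49 to 7.72 on the log2 scale. Apart from Clca1, their WT ranges overlapped the Het range and not the KO range. None passed in edgeR over all genes, and DESeq2 called all 6. In bulk tissue, fewer or more cells of a type and less or more RNA per cell cannot be told apart.

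Clca1 (chromosome 3, 145003817 to 145032776), a protein secreted by mucous and goblet cells, was at 4.67, 15.8 and 5.6 CPM in KO. It had 2 reads in Het library 1 (0.108 CPM) and 0 reads in Het libraries 2 and 3. The WT libraries, at 0.314, 0.577 and 0.933 CPM, lay between the groups and overlapped neither. The count ratio of KO to Het was 249 (95% counting interval 68.6 to 2065), from 469 reads over the KO libraries and 2 over the Het libraries, and it covers counting error only, since reads are not independent molecules. The edgeR log2 fold change was 7.72 (SE 1.11, adjusted p = 0.311), and Clca1 was called by DESeq2. Clca1 stood 3.82 above WT in KO and at -3.90 against WT in Het on the log2 scale, from contrasts that share the WT libraries. Of 8 mucous and goblet-cell genes tested, 5 were higher and 3 lower in KO, with a median of 0.18, and for 2 of them all KO libraries lay above all Het libraries (7.80% of all genes tested). With 1 library left out that median ran from -0.029 (KO library 2) to 0.86 (Het library 2).

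Krt4 (chromosome 15, 101918535 to 101924735), a keratin of stratified epithelia that in the prostate marks luminal cells near the urethra, was at 70.5, 145 and 45.4 CPM in KO. In Het it was at 17.7, 11.2 and 8.66 CPM, and in WT at 6.07, 13.3 and 13.3 CPM. Every KO library stood above all 6 others, and Het and WT overlapped (log2 fold change of KO against Het 2.80, SE 0.50). Krt15, a basal keratin, was at 194, 357 and 196 CPM in KO and at 64.3, 116 and 77.5 CPM in Het. Its WT values of 84.3, 124 and 179 CPM reached to just under the KO range (1.54, SE 0.35). Cyp2f2, a cytochrome P450 of secretory airway-type cells, had 53.8, 122 and 77.6 CPM in KO against 29.1, 6.76 and 18.2 CPM in Het (2.23, SE 0.69), with WT overlapping Het only. DESeq2 called Krt4, Krt15 and Cyp2f2.

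Of the cell-type lists that hold these genes, the proximal luminal list was divided, while most of the basal list was higher in KO. Of 22 proximal luminal genes tested, 12 were higher and 10 lower in KO than in Het (median 0.06, or -0.34 with the seminal vesicle score), and for 5 all KO libraries lay above all Het libraries, against 7.80% of all genes tested. Wfdc2, a secreted whey acidic protein of that list, had 41.7, 50.8 and 39 CPM in KO and 9.51, 33.2 and 25.4 CPM in Het, while WT was at 6.75 to 9.85 CPM (0.95, SE 0.38). Of 19 basal genes tested, 15 were higher in KO (median 0.42), 5 of them without overlap (7.80% of all genes tested). DESeq2 called 2 of the basal genes higher (0.862% over all genes), Krt15 and Dsc3, and Dsc3 had 0 reads in all 3 Het libraries. Skeletal muscle and seminal vesicle genes were also higher in the KO libraries, and a score for each, the mean log2 CPM of its list in a library, was added to the model in turn as a covariate. Less its mean over all libraries, the skeletal muscle score was 1.59 to 5.27 in KO and -2.92 to -1.88 in Het. The seminal vesicle score was 2.03 to 2.74 in KO and -5.12 to -0.24 in Het. Both scores thus separated KO from Het, and the covariate fits cannot cleanly tell score from genotype. With the skeletal muscle score Krt4 stood at 1.73 and Krt15 at 0.29. The basal median turned to -0.27 with the skeletal muscle score and to -0.62 with the seminal vesicle score, and Wfdc2 to -0.05 with the latter. Without Het library 1 the basal median was 0.04 and Wfdc2 stood at 0.58.

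Binding proteins of insulin-like growth factors hold IGF1 in the tissue and set how much reaches its receptor, and for 3 of their genes all KO libraries lay above all Het libraries. Igfbp3 (chromosome 11, 7206086 to 7213923) was at 58.1, 52.4 and 28.2 CPM in KO and at 10.2, 15.4 and 13.1 CPM in Het. The WT values of 8.32, 24.1 and 19.1 CPM overlapped Het and stayed below KO. The log2 fold change was 1.84 (SE 0.40, 95% interval 0.94 to 2.74), DESeq2 called it, and it was 1.16 adjusted for the seminal vesicle score. Igfbp5 was at 396, 469.7 and 214 CPM in KO, 177, 130.3 and 78.3 CPM in Het and 165 to 211 CPM in WT (1.49, SE 0.34), so KO library 3 stood just above the WT range. Igfbp4 was at 92.2, 90.3 and 49.95 CPM in KO and at 35.7, 32.1 and 35 CPM in Het (1.18, SE 0.31), with WT overlapping both, and 0.52 with the skeletal muscle score.

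The rest of the IGF axis list was divided. Of 21 genes tested, 12 were higher and 9 lower in KO than in Het, with a median of 0.08, which turned to -0.21 without KO library 3, to -0.10 without Het library 1 and to -0.31 with the seminal vesicle score. The 3 genes without overlap above (7.80% of all genes tested) were these binding proteins, 1 gene was below (4.12%), and DESeq2 called 2 higher (0.862%), Igfbp3 and Igfbp5. Pappa2, a protease that cuts IGF-binding proteins, went the other way, at 5.99, 10.5 and 6.12 CPM in KO and 23.2, 10.2 and 18.4 CPM in Het (-1.20, SE 0.37), but WT was at 6.96 to 10.2 CPM, and Het library 2 lay inside the KO range, so Het libraries 1 and 3 stood apart. With the seminal vesicle score Pappa2 stood at -0.52. Igf1, the growth factor, was at 26.5, 30.0 and 21.9 CPM in KO and 23.7, 11.4 and 11.3 CPM in Het. The KO and Het ranges of Igf1 overlapped through Het library 1 (0.76, SE 0.32, 95% interval 0.05 to 1.46, edgeR adjusted p = 0.763). Igf1 stood at 1.21 without Het library 1 and at 1.53 with the seminal vesicle score, and neither passed. Voom with library quality weights called Igf1, and edgeR, DESeq2 and plain voom did not. The receptor gene Igf1r was at 67.8 to 109 CPM in KO and 64.6 to 157 CPM in Het (-0.28, SE 0.36).

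Timp1 (chromosome X, 20870166 to 20874735), a secreted inhibitor of matrix metalloproteinases, had 13.8, 8.53 and 24.1 CPM in KO and 1.46, 4.14 and 2.1 CPM in Het. WT, at 2.51 to 5.55 CPM, overlapped Het only. The log2 fold change was 2.59 (SE 0.54), DESeq2 called it, and it was 1.32 adjusted for the seminal vesicle score. Gli1, a transcription factor and target of hedgehog signalling, was at 6.65, 4.38 and 2.46 CPM in KO and 1.47 to 1.78 CPM in Het (1.50, SE 0.55), with WT at 1.1 to 2.31 CPM. It was 1 of 4 genes without overlap on the higher side among 39 genes of hedgehog, FGF, BMP and TGF-beta signals (27 higher, 12 lower, median 0.29), where 7.80% of all genes tested did so. That median was 0.11 without Het library 1 and turned to -0.34 with the seminal vesicle score. Without strand information, reads of Timp1 and Gli1 cannot be told apart from those of Syn1 and Arhgap9, which overlap them. Lsm5, a subunit of a ring that binds U6 RNA, was at 7.14, 4.95 and 1.31 CPM in KO, 0.0541 to 0.386 CPM in Het and 0.418 to 0.83 CPM in WT (4.50, SE 0.96).

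Some genes were lower in KO than in both other groups. C1galt1, which builds the core of mucin-type O-glycans, was at 42.9, 46 and 51.2 CPM in KO, 67.2, 65.7 and 63.5 CPM in Het and 63.6 to 72.9 CPM in WT (-0.49, SE 0.13). Cep85, a centrosomal protein gene, was at 813, 562 and 598 CPM in KO and at 925 to 1316 CPM in Het, with WT at 1008 to 1532 CPM (-0.85, SE 0.23, and -1.39 with the seminal vesicle score). Mtm1, the phosphoinositide phosphatase myotubularin, was at 6.43 to 7.39 CPM in KO, 9.01 to 13.1 CPM in Het and 12.5 to 16.2 CPM in WT (-0.66, SE 0.25, and -0.20 with the seminal vesicle score). In each of these 3 the KO range lay below all 6 other libraries. None was called by DESeq2. Defb28, a beta-defensin gene named here after its values were seen, was among the 9 genes DESeq2 called lower, with 0.11, 0 and 0 CPM in KO, 0, 11.6 and 5.46 CPM in Het and 1.51 to 3.5 CPM in WT. Its groups overlapped, since Het library 1 had 0 reads.

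**Figure D2:**
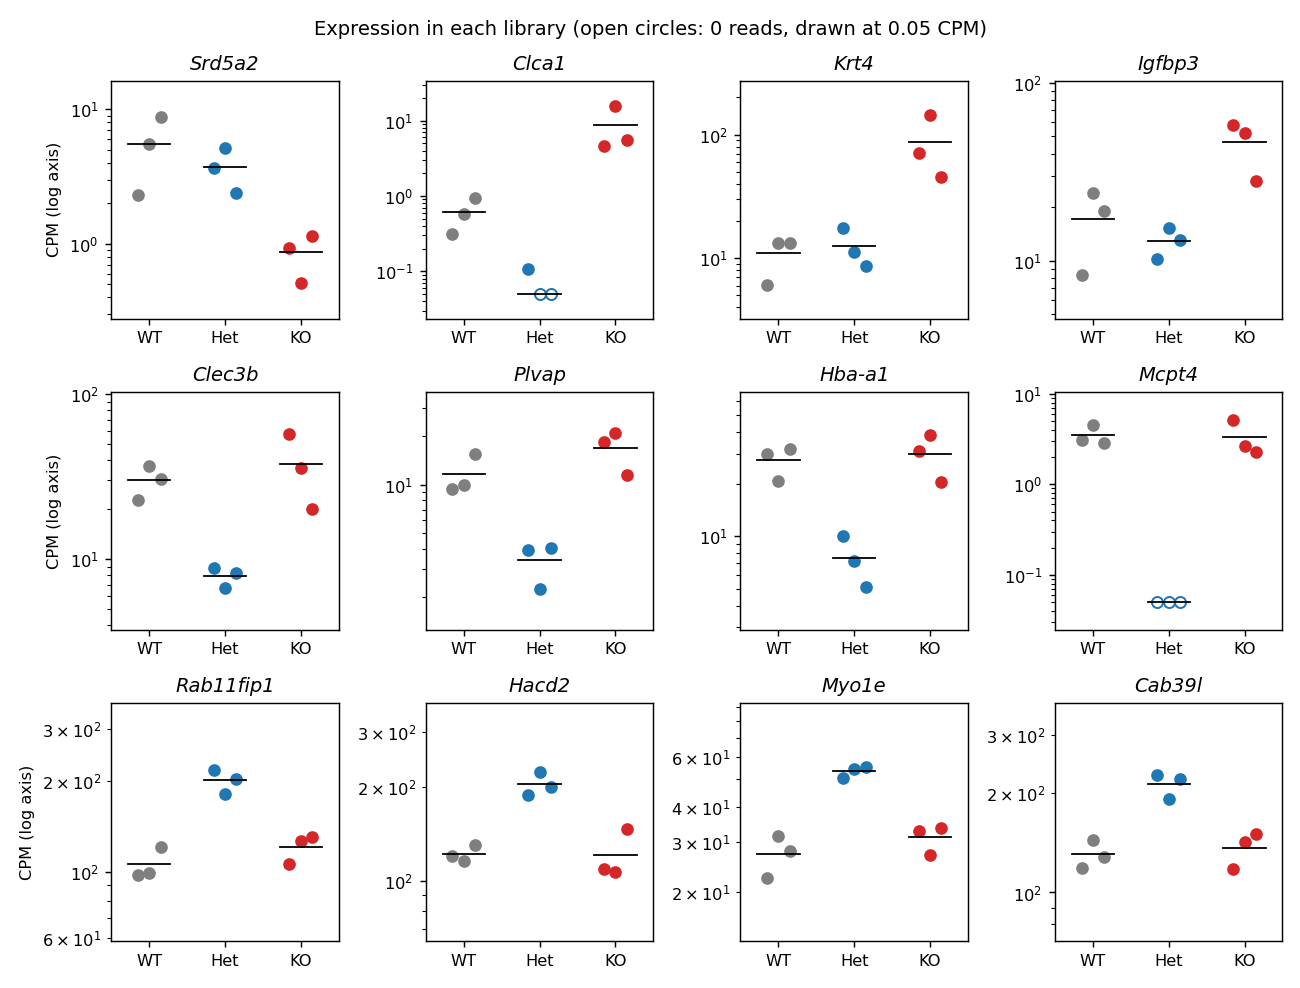
CPM (log axis) of 12 genes in each of the 9 libraries, by genotype, with the group mean as a line and 0 reads drawn as open circles at 0.05 CPM. In the top row the KO libraries stand apart, with Srd5a2 lower and Clca1, Krt4 and Igfbp3 higher, though for Clca1 the Het libraries also lie below WT. In the middle and bottom rows the Het libraries stand apart and WT overlaps KO.

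More often, among the genes called, it was the Het libraries that stood apart. They were not a uniform group. The correlation of log2 CPM was 0.818 to 0.894 between Het libraries, 0.947 to 0.957 between KO libraries and 0.914 to 0.937 between WT libraries. Het libraries 1 to 3 each correlated more closely with KO library 3 (0.895, 0.908 and 0.917) than with any other Het library. Of the 171 genes called by DESeq2 and tested in edgeR, the WT mean was nearer the KO mean for 115 (67.3%) and nearer the Het mean for 56, against 59.4% nearer KO over all genes tested. The WT range overlapped the KO range only for 94 of the 171 (55.0%) and the Het range only for 32 (18.7%), while 30 overlapped both and 15 neither. Over all genes tested these shares were 9.74% and 10.6%. Among the 113 calls with a read in at least 1 Het library, 60 overlapped KO only and 25 Het only. The 319 calls of voom with quality weights gave 119 overlapping KO only and 65 Het only. The WT libraries took no part in the KO minus Het difference but share the estimate of spread, and the placement is a description.

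The contrast of Het with the mean of KO and WT shares the Het and KO libraries with KO against Het. In it edgeR called 0 of 16836 genes (0%) with a lowest adjusted p of 0.298, and 1477 genes (8.77%) had an unadjusted p under 0.05, 537 higher in Het (3.19%) and 940 lower (5.58%). DESeq2 called 256 (1.30%), 35 higher (0.177%) and 221 lower (1.12%), limma voom 0, and voom with quality weights 1290 (7.66%). In the matching contrast of KO with the mean of Het and WT, edgeR called 0 (0%), with 713 genes (4.23%) at an unadjusted p under 0.05, 564 higher in KO (3.35%) and 149 lower (0.885%). DESeq2 called 71 there (0.369%), 65 higher in KO (0.338%) and 6 lower (0.0312%), and both voom fits called 0. Without Het library 1 edgeR called 194 genes in the first contrast and 3 in the second, Wfdc2, Cuzd1 and Clca1 (Cuzd1 is named because of that count).

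Mast cells store proteases and histamine in granules, and 3 of their protease genes had reads in every KO and WT library and in no Het library. Mcpt4 and Cma1 encode chymases of connective-tissue mast cells and Tpsb2 a tryptase. Mcpt4 (chromosome 14, 56059629 to 56062313) was at 5.16, 2.67 and 2.25 CPM in KO and at 3.09, 4.53 and 2.85 CPM in WT. No Het library held a read of it. Cma1 (chromosome 14, 55941451 to 55944675) was at 3.24, 1.76 and 1.46 CPM in KO and 1.88 to 3.51 CPM in WT, and likewise without a read in Het. Tpsb2 (chromosome 17, 25366550 to 25368094) was at 3.57, 0.91 and 0.732 CPM in KO and 2.09 to 2.8 CPM in WT, and again without a read in Het. Against a floor of 3 reads over the Het group (0.0514 CPM), the pooled KO level was 65.2-fold higher for Mcpt4, 41.8-fold for Cma1 and 33.7-fold for Tpsb2. These ratios cover counting error of the Het reads only. They take the KO reads as exact and leave out spread between libraries. For Tpsb2, 65 of the 95 KO reads came from KO library 1. Genes at 0 reads in all libraries of a group numbered 147 in Het, 2 in KO and 21 in WT, so this was not particular to mast cell genes. Of the 147, DESeq2 called 58 in KO against Het, and 37 of those had reads in every WT library. WT library 3, which resembled the Het libraries in its few genes at 1 to 4 reads, held 2.85 CPM of Mcpt4. The likeness was partial, since 7.53% of genes averaging 1 to 3 CPM had 0 reads in it, against 10.9% to 12.6% in Het. The part of low-count loss in the 0 reads of these protease genes was not tested.

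The promoters of both chymase genes are shown because the genes lie in 1 protease cluster on chromosome 14 and were both at 0 reads in all Het libraries. They are the 250 bases upstream of each start, 5′ to 3′ on the minus strand, from RefSeq (GRCm38.p6). Mcpt4 is chr14:56062311-56062560 and Cma1 is chr14:55944676-55944925, and capitals mark GATA words on either strand (the word AGATAA, the word AGATAG, the word TGATAA and the word TGATAG) and the word TATAAA on the printed strand.
Mcpt4: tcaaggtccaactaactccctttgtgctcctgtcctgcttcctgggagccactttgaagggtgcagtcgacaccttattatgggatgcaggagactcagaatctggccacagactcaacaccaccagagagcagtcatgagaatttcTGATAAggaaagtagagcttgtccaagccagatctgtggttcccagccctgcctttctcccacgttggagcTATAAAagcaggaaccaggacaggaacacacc
Cma1: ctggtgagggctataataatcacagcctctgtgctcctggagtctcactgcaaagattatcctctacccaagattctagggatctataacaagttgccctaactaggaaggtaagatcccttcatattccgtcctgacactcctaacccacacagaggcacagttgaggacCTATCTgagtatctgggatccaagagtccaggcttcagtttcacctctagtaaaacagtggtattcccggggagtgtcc
The Mcpt4 window held 1 GATA word at -103 and TATAAA at -32, counted from the start of transcription. The Cma1 window held 1 GATA word at -79, read on the opposite strand, and no TATAAA. Aligned, the windows shared 141 of 286 columns (49.3%). A GATA word was found in 26.5% of 32851 promoters of the table and TATAAA in 7.59%, so a match is a description of these letters only.

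Gata2, a GATA factor of mast cells and also of prostate epithelium, was at 428, 364 and 393 CPM in KO, 164, 257 and 163 CPM in Het and 334 to 494 CPM in WT. The Het libraries were lower than all 6 others (KO against Het 1.02, SE 0.23), and DESeq2 called it. In all, 7 mast cell genes were tested, 5 higher and 2 lower in KO (median 1.20, or 6.65 without Het library 3 and 4.64 with the skeletal muscle score). The 4 that DESeq2 called, all higher (0.862% over all genes), were Mcpt4, Cma1, Tpsb2 and Gata2. The other 3, named after their values were seen, overlapped between the groups. Kit, the stem cell factor receptor, had 8.79 to 17.4 CPM in KO and 0.757 to 44.3 CPM in Het. Hdc, which makes histamine, had 1.04 to 1.54 CPM in KO and 0.497 to 5.38 CPM in Het, and Cpa3, a granule protease, had 0 reads in 2 Het libraries and 0.828 CPM in the third.

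Endothelial genes were lower in Het than in KO and WT. Of 26 vascular endothelial genes tested, 25 were higher in KO than in Het, with a median log2 fold change of 1.24 against 0.02 over all genes tested. For 16 all KO libraries lay above all Het libraries (7.80% of all genes tested), and DESeq2 called 6 higher (0.862%). The medians were -0.83 in Het against WT and 0.52 in KO against WT, contrasts that share libraries. The list's mean log2 CPM was 3.46, 3.68 and 2.76 in KO, 1.41, 2.03 and 2.25 in Het and 2.30, 3.02 and 2.98 in WT. Only the Het range was separate, and Het library 3 lay just under WT library 1. Over all genes tested the mean log2 CPM was 3.38 to 3.46 in KO, 3.04 to 3.18 in Het and 3.22 to 3.30 in WT. The Het libraries thus lay lowest over all genes as well, and the part of this in the list means was not tested.

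Plvap (chromosome 8, 71497765 to 71511752), which forms the diaphragms of fenestrated capillaries, was at 18.3, 20.9 and 11.5 CPM in KO and 3.95, 2.25 and 4.03 CPM in Het. WT was at 9.36 to 15.4 CPM, and every Het library lay below all 6 others (2.31, SE 0.37, 95% interval 1.50 to 3.13). Vwf, von Willebrand factor, was at 15.9, 24.5 and 8.05 CPM in KO, 2.27, 5.52 and 2.59 CPM in Het and 14.9 to 16 CPM in WT (2.22, SE 0.46). Npr1, the receptor of atrial natriuretic peptide, was at 10.8 to 12.9 CPM in KO, 3.86 to 5.35 CPM in Het and 9.18 to 13.9 CPM in WT (1.35, SE 0.27). These 3 had the same arrangement, Het low and WT with KO. Reads of Plvap cannot be told apart from those of the overlapping gene Gtpbp3.

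The endothelial adhesion genes overlapped more with WT. Cdh5, VE-cadherin, was at 10.3, 23.6 and 11 CPM in KO and 4.32, 4.04 and 6.24 CPM in Het (1.62, SE 0.45), with WT at 5.13 to 12.9 CPM. Pecam1 was at 24.2, 30.5 and 13.1 CPM in KO and 7.08, 12.9 and 10.3 CPM in Het (1.16, SE 0.43). Adjusted for the skeletal muscle score, the list's median was 0.55, Cdh5 stood at 0.31 and Pecam1 at -0.02. The lymphatic list had 8 of 9 genes higher in KO (median 1.59), among them Lyve1, a hyaluronan receptor, at 3.66 to 7.36 CPM in KO, 0.541 to 1.21 CPM in Het and 3.14 to 10.3 CPM in WT (2.47, SE 0.57, and 1.602 with the seminal vesicle score). Its median was -0.10 adjusted for the seminal vesicle score.

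Adventitial fibroblast genes were also lower in Het than in KO and WT. Of 28 tested, 27 were higher in KO than in Het (median 0.95), 11 without overlap (7.80% of all genes tested), and DESeq2 called 4 higher (0.862%). The list's mean log2 CPM was 3.92 to 4.72 in KO, 3.33 to 3.56 in Het and 3.95 to 4.59 in WT. As given above, the Het libraries were also lowest in the mean over all genes tested. Clec3b (chromosome 9, 123150946 to 123157432), which encodes the plasminogen-binding protein tetranectin, was at 57.6, 35.4 and 20.1 CPM in KO and 8.86, 6.66 and 8.22 CPM in Het. WT was at 22.8, 36.8 and 30.7 CPM, inside the KO range, and the Het range was far below both (2.25, SE 0.36, 95% interval 1.44 to 3.06). Mfap5, a microfibril protein, was at 18.3, 11.9 and 10.5 CPM in KO, 4.16, 2.53 and 0.717 CPM in Het and 7.69 to 20.5 CPM in WT (2.46, SE 0.59). Cd34, a surface sialomucin of adventitial fibroblasts and endothelium, was at 18.6 to 33.3 CPM in KO and 9.33 to 13.2 CPM in Het (1.38, SE 0.30), and 0.88 with the seminal vesicle score. The median of the list without KO library 1 was 0.56.

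Of 35 genes of interstitial fibroblasts and matrix, 31 were higher in KO (median 0.79) and 4 lower. Without overlap, 17 lay above (7.80% of all genes tested) and 1 below (4.12%), and DESeq2 called 2 higher (0.862%). Here Het overlapped WT, since the list's mean log2 CPM was 3.79, 4.71 and 4.39 in Het and 4.14, 5.23 and 4.81 in WT, and the WT mean was nearer KO for 18 of the 35 genes. Col5a1, a fibril-forming collagen chain, was at 38.6, 33.2 and 27.8 CPM in KO and 12, 12.5 and 12.1 CPM in Het, with WT at 13.5 to 32.4 CPM (1.45, SE 0.30). Dcn, the collagen-binding proteoglycan decorin, was at 162 to 239 CPM in KO and 110.0 to 129 CPM in Het (0.81, SE 0.22). Col1a1, the main chain of type I collagen, was at 169.5 to 213 CPM in KO and 51.9 to 153 CPM in Het (0.90, SE 0.41), so Het library 2 came close to the KO range. The gene on the lower side without overlap was Srd5a2 itself, a member of this list. Adjusted for the seminal vesicle score, the list's median turned to -0.10 and Col1a1 to -0.30, and Col1a1 stood at 0.58 without Het library 1. Outside the lists, Ccdc80 and Cpxm1, both secreted matrix-associated proteins, were at 31 to 34.5 and 4.55 to 10.2 CPM in KO and at 13.1 to 19.3 and 0.828 to 2 CPM in Het. Smooth muscle genes were not part of this, with 6 of 20 higher in KO and a median of -0.10, which turned to 0.23 without Het library 2.

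Haemoglobin, immunoglobulin and several macrophage genes had the same arrangement. Hba-a1 (chromosome 11, 32283511 to 32284465), a haemoglobin alpha gene, was at 31.1, 38.3 and 20.7 CPM in KO, 10.1, 7.22 and 5.13 CPM in Het and 21 to 32 CPM in WT (2.01, SE 0.32, 95% interval 1.29 to 2.72). Hbb-bs, a beta chain gene, was at 16.1 to 30.5 CPM in KO and 1.88 to 8.37 CPM in Het (1.99, SE 0.52). The haemoglobin genes have near-identical copies that may share reads. Of 8 blood genes, 6 were higher in KO (median 1.66). The summed level of the list did not separate the groups (408 to 677 CPM in KO, 95.3 to 1497 CPM in Het), since Bpgm, an erythrocyte enzyme gene, made up most of it at 1472 CPM in Het library 2. Ighm, the immunoglobulin M heavy chain, was at 51.8, 63.8 and 15 CPM in KO and 6, 8.82 and 2.54 CPM in Het (2.91, SE 0.65), and 10 of 11 B and plasma cell genes were higher in KO (median 2.49). Of 25 macrophage and dendritic cell genes 21 were higher (median 0.62, or -0.11 with the seminal vesicle score), 4 of them without overlap (7.80% of all genes tested). DESeq2 called 0 of these macrophage and dendritic cell genes (0.907% over all genes). The macrophage median was 0.37 without KO library 1 and 0.41 without Het library 3. C1qa, a complement subunit made by macrophages, was at 20.8 to 40.8 CPM in KO, 12.2 to 15.4 CPM in Het and 18.5 to 30.8 CPM in WT (1.09, SE 0.29). Other immune lists did not have it. The mean log2 CPM of T and NK cell genes was lower in WT library 1 (-1.24) than in the Het libraries (-1.01 to -0.59), and that of antigen presentation genes in WT library 1 (4.94) lay within the Het range (4.93 to 5.33). Their medians in KO against Het were 0.58 (1.14 without Het library 2) and 0.28 (0.14 without KO library 3). The 1 neutrophil gene tested stood at -0.49 in KO against Het and 1.36 in Het against WT.

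**Figure D3:**
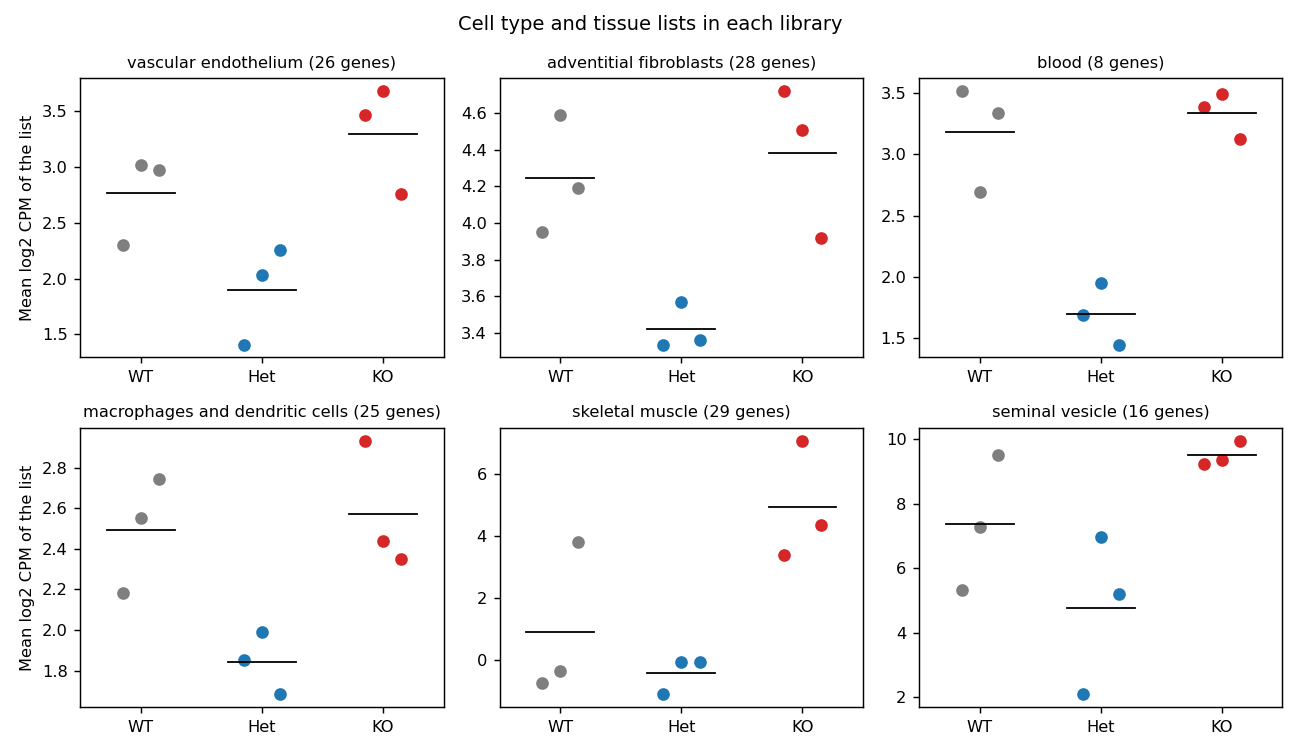
Mean log2 CPM of 6 gene lists in each of the 9 libraries, by genotype, with the group mean as a line. In the vascular, adventitial fibroblast, blood and macrophage panels the 3 Het libraries lie lowest and WT overlaps KO. The Het libraries also lie lowest in the mean over all genes tested, which is not drawn. In the skeletal muscle and seminal vesicle panels the KO libraries are high and WT library 3 lies within their range.

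Some named genes were higher in Het than in both other groups. They were picked by smallest p, and sizes of difference were not compared over all genes higher or lower in Het. Rab11fip1 (chromosome 8, 27138773 to 27174646), an effector of Rab11 in endosome recycling, was at 219, 182 and 204 CPM in Het, 106, 127 and 131 CPM in KO and 97.7 to 121 CPM in WT. The Het range lay above all 6 others, 1.67-fold above KO (log2 fold change of KO against Het -0.74, SE 0.15, 95% interval -1.06 to -0.41). Hacd2, an enzyme of very long chain fatty acid elongation, was at 189, 224 and 200.1 CPM in Het and 107 to 147 CPM in KO (-0.75, SE 0.16). Myo1e, a membrane-binding class I myosin, was at 50.6, 54.2 and 55.4 CPM in Het and 27 to 33.6 CPM in KO (-0.78, SE 0.17). Cab39l, a partner of the kinase LKB1, was at 193 to 227 CPM in Het and 118 to 151 CPM in KO (-0.64, SE 0.15). DESeq2 called all 4, and for each the WT range overlapped KO only.

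Acpp, prostatic acid phosphatase, was at 16.3, 13.1 and 13.2 CPM in Het, 6.59 to 8.19 CPM in KO and 5.02 to 6.9 CPM in WT (-0.94, SE 0.26), and DESeq2 called it. Bmpr1b, a receptor of bone morphogenetic proteins, was at 184 to 329 CPM in Het and 107 to 182 CPM in KO (-0.74, SE 0.26, or -0.33 with the seminal vesicle score and -0.46 without Het library 1). Foxred2, which acts in degradation from the endoplasmic reticulum, was at 24 to 28.9 CPM in Het and 10.4 to 18.5 CPM in KO (-1.01, SE 0.26). Of 26 genes of endosome recycling and epithelial trafficking, a list built with these results known, 18 were lower in KO than in Het (median -0.22), 3 without overlap (4.12% of all genes tested). Those 3, Rab11fip1, Myo1e and Cab39l, were also called lower by DESeq2 (0.0456%), and the list was drawn up with them in view. Its median turned to 0.094 with the skeletal muscle score and to 0.16 with the seminal vesicle score, and was 0.007 without Het library 1.

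**Figure D4:**
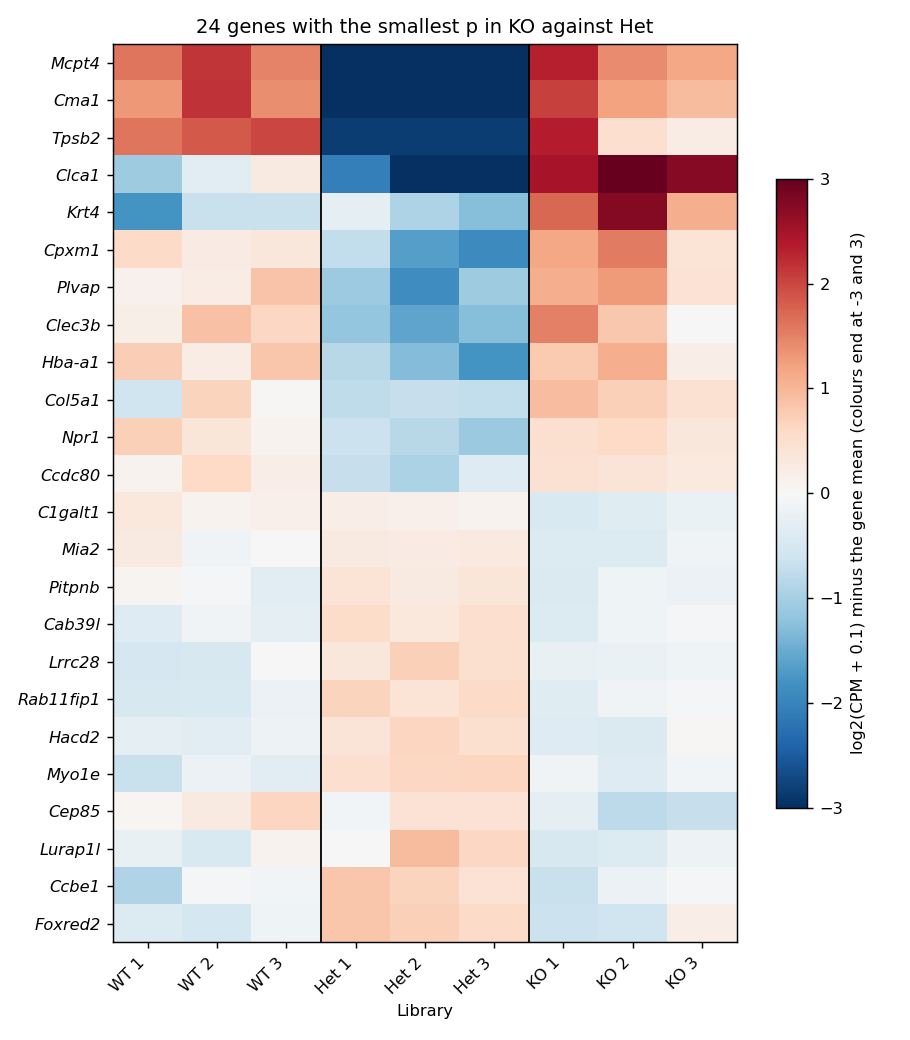
Log2(CPM + 0.1) less the gene's mean over 9 libraries, for the 12 genes higher and the 12 genes lower in KO with the smallest p in KO against Het (rows) in each library (columns), with colours ending at -3 and 3. For most rows the middle block of 3 Het libraries differs from both sides, and for Krt4, C1galt1 and Cep85 the right block of 3 KO libraries does. For Clca1 both blocks differ from WT, which lies between them.

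Androgen-responsive genes were divided between KO and Het. Of 37 androgen-responsive genes tested, 13 were higher and 24 lower in KO than in Het, with a median of -0.21 against 0.02 over all genes. The median turned to 0.28 with the skeletal muscle score, to 0.38 with the seminal vesicle score, to 0.14 in plain voom and to 0.038 without Het library 1. For 2 all KO libraries lay above all Het libraries (7.80% of all genes tested) and for 3 below (4.12%), and DESeq2 called 3 (0.907%; Aldh1a3 and Steap4 higher, Acpp lower). Fkbp5, a co-chaperone and target of steroid receptors, was at 135 to 228 CPM in KO and 238 to 337 CPM in Het, with WT at 80.2 to 172 CPM (-0.61, SE 0.29, and -1.27 with the skeletal muscle score). Odc1, which makes polyamines, was at 199 to 259 CPM in KO and 241 to 397 CPM in Het (-0.58, SE 0.22). Aldh1a3, which makes retinoic acid, went the other way at 5.13 to 7.08 CPM in KO and 1.16 to 2.16 CPM in Het (1.71, SE 0.44), with WT at 2.72 to 5.18 CPM. Pbsn, probasin, a secretion that depends on androgen, was at 10613, 6823 and 4416 CPM in KO and 6299, 2508 and 2697 CPM in Het (0.93, SE 0.42), and at 8323 to 13056 CPM in WT. Pbsn stood at 0.55 without KO library 1, at 1.49 without Het library 1, at 1.79 with the skeletal muscle score and at 2.21 with the seminal vesicle score.

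Srd5a1 was at 5.49 to 11.4 CPM in KO and 5.46 to 19 CPM in Het (-0.49, SE 0.50, 95% interval -1.61 to 0.62), and Srd5a3, which acts mainly in glycosylation, at 12.8 to 16.8 and 14 to 20.4 CPM (-0.22, SE 0.24). Of 27 genes of steroid metabolism and receptors 8 were higher and 19 lower (median -0.17), and 0 were called by edgeR or DESeq2. The 3 without overlap, all lower in KO (4.12% of all genes tested), were Srd5a2, Fkbp5 and Hsd11b2, the enzyme that inactivates glucocorticoids (named after its values were seen).

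Wnt5a and Lef1, named in the series title, were spread more widely among the Het libraries than among the KO libraries. Wnt5a, a secreted ligand, was at 20.2, 23.4 and 33.8 CPM in KO and 6.32, 37.6 and 30.0 CPM in Het (0.07, SE 0.52, 95% interval -1.10 to 1.24). Lef1, a transcription factor that works with beta-catenin, was at 5.93, 3.13 and 2.82 CPM in KO and 1.51, 10.9 and 3.42 CPM in Het (-0.42, SE 0.70, 95% interval -1.98 to 1.14). Both ranges of KO lay within those of Het. The sign turned for Wnt5a without Het library 1 (-0.38) and for Lef1 without Het library 2 (0.68). Of 42 Wnt ligands, receptors and antagonists 25 were higher and 17 lower in KO (median 0.07), and of 23 beta-catenin factors and targets 11 were higher and 12 lower (median -0.17). The Wnt median turned to -0.28 with the seminal vesicle score and was 0.32 without Het library 2. The beta-catenin median turned to 0.36 without Het library 2 and to 0.37 without the libraries low in Sbp. DESeq2 called 0 in either list. Among receptors, Fzd7 was at 27.7 to 35.5 CPM in KO and 16.3 to 26.1 CPM in Het, with WT at 31.5 to 33.4 CPM (0.61, SE 0.20, and 0.23 with the seminal vesicle score).

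Markers of neighbouring tissues moved with KO against Het as well. All 29 skeletal muscle genes tested were higher in KO, 26 without overlap (7.80% of all genes tested), and DESeq2 called 12 (0.862%). Their median log2 fold change was 6.58, and they made up 12 of the 162 DESeq2 calls on the higher side. Their summed level was 959.9, 8353 and 1441 CPM in KO, 177, 742 and 615 CPM in Het and 377, 725 and 1632 CPM in WT. Myh4, a fast myosin heavy chain, was at 27.8, 1078 and 105 CPM in KO and 61.5 CPM in WT library 3, with 0 reads in the 3 Het libraries and WT libraries 1 and 2. Without KO library 2 the median was 4.86. In Het, 5 of the 29 had 0 reads in all libraries (Myh4, Ckmt2, Myl3, Pvalb and Xirp2).

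Seminal vesicle genes were at 98999 to 200327 CPM in sum in KO and 6646, 359722 and 113485 CPM in Het, so the most abundant members did not separate the groups. Of 16 tested, 11 were higher in KO (median 1.89), 8 without overlap (7.80% of all genes tested) and 6 called higher by DESeq2 (0.862%). Sva, a secreted protein of the seminal vesicle, was at 446, 607 and 945 CPM in KO, 0.0541, 0.827 and 0 CPM in Het and 0.418, 36.1 and 508 CPM in WT (11.02, SE 2.66). Svs1 was at 2459 to 7670.1 CPM in KO and 0 to 12.3 CPM in Het, but Svs2, at 32380.3 to 77428 CPM in KO and 3901 to 230595 CPM in Het, overlapped fully. The list's median was 3.69 without Het library 2. The part of skeletal muscle and seminal vesicle RNA in the differences of other genes was not tested. The covariate fits given beside them cannot settle it, since both scores separated KO from Het without overlap.

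**Figure D5:**
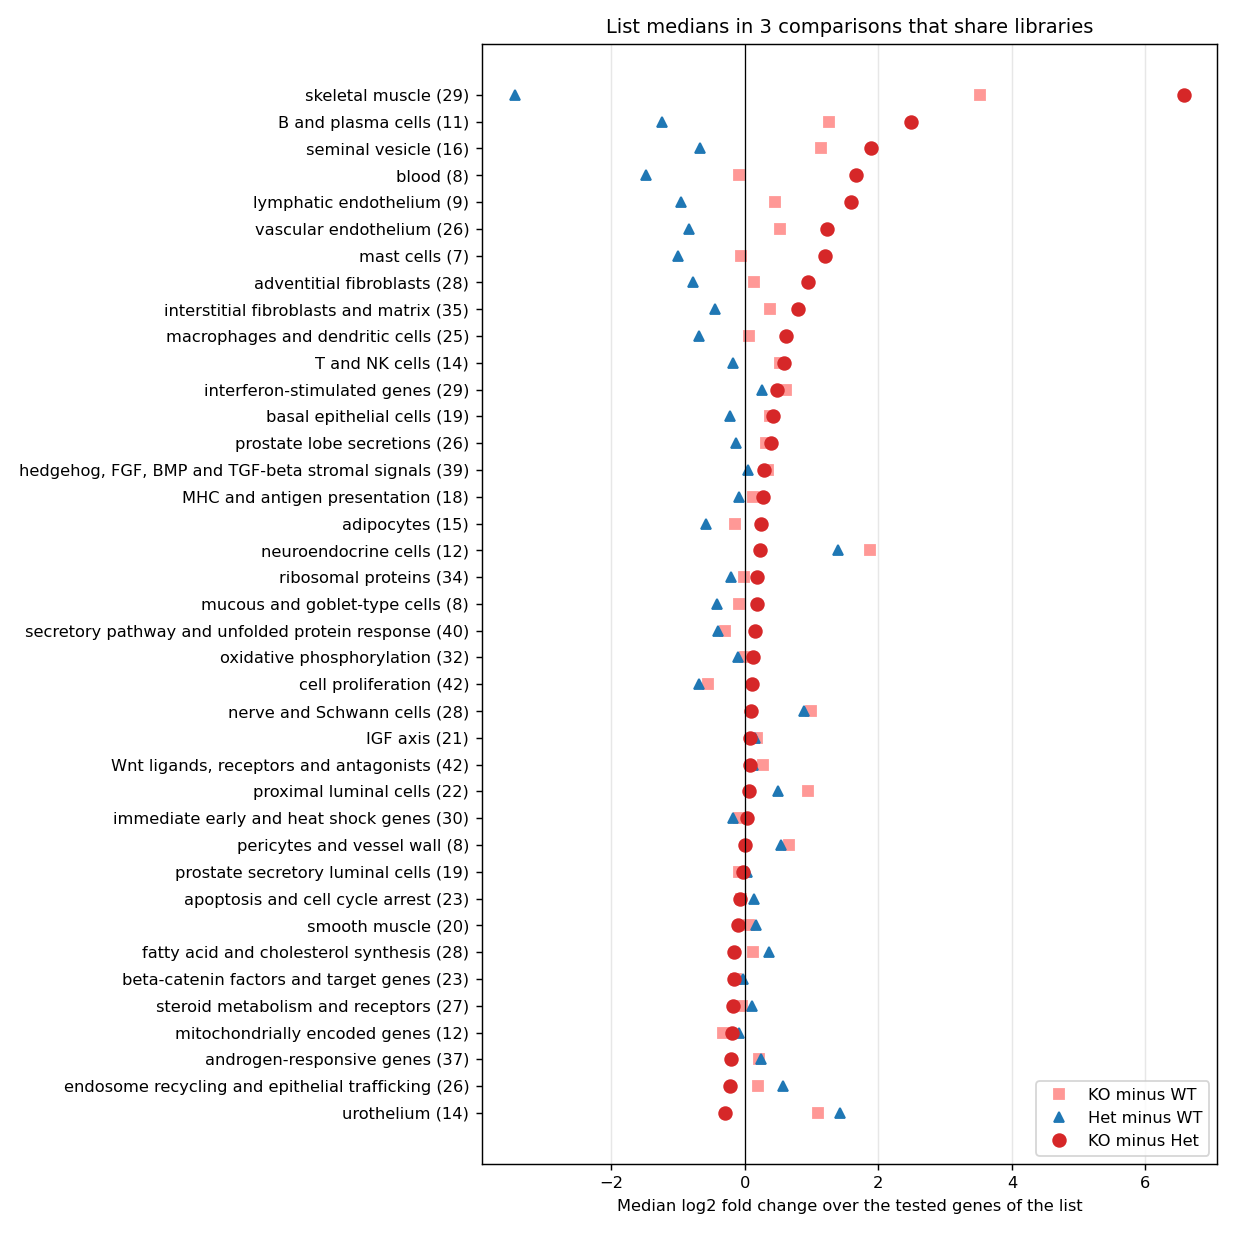
Median log2 fold change over the tested genes of each list with at least 5 of them (numbers in brackets) for KO minus Het (circles), Het minus WT (triangles) and KO minus WT (squares). The 3 comparisons share libraries and are shown side by side, and in the upper rows the KO minus Het medians, such as 1.24 for vascular endothelium, come with Het minus WT medians below 0.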

How the data were processed

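RNA-seq of prostate tissue was compared between 3 KO and 3 Het libraries, with 3 WT libraries in the same fit. Genotypes came from the library names. The authors deposited whole-number read counts per gene and FPKM values, and the submitters' processing notes name the build GRCm38, also called mm10. Aligner, counter and strand setting were not given in the labels. Tests on the deposited counts used edgeR 4.0.16 under R 4.3.3 (TMM scaling, filterByExpr, robust quasi-likelihood, all 9 libraries, Benjamini-Hochberg threshold 0.05 over 16836 of 54532 genes, prior count 2). CPM used TMM-scaled library sizes. The deposited FPKM served for Srd5a2 only. DESeq2 1.42.0, limma 3.58.1 (voom with and without library quality weights), other scalings and filters, covariates, the 6 libraries alone and each library left out were alternatives. The sign and size of fitted fold changes were checked on simulated counts with capped spread. The simulation did not include the low-count pattern of the Het libraries, so it does not bear on that. The counting interval of the Clca1 count ratio and the floors (3 counts over a group) cover counting error only. Intervals of fitted fold changes rest on the edgeR SE and so include spread between libraries.

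Members and lists were chosen with earlier results of these data known, and so were the libraries low in Sbp. Named genes were 10 always given, in KO against Het the 12 of smallest p on each side, the 6 in each direction in the other 2 contrasts, and up to 4 per list (40 lists), leaving out unnamed gene models. Prostate markers, Sbp, Cpa3, Kit, Hdc, Bpgm, Defb28, Cuzd1 and other genes named only because they stood behind a small count were added after their values were seen. Fold changes and SEs are on edgeR's log2 scale throughout. Replicate numbers follow accession order and pair nothing. Some items that this rule names are not reported here.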

Additional observations from a re-analysis of the deposited data

How the results depend on the processing

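The count of genes called in KO against Het was 0 in edgeR with other scalings, a stricter filter, the 6 libraries alone, and skeletal muscle or Sbp as a covariate. It was 2 with no low-count filter (Clca1 and Mcpt4), 179 in DESeq2, 319 in voom with library quality weights, 35 with the seminal vesicle score (32 higher, 3 lower) and 1 without the 3 libraries low in Sbp (Sva). With 1 library left out at a time it ran from 0 to 18, the last without Het library 1. In Het against the mean of KO and WT the count was 256 in DESeq2, 1290 in voom with quality weights, 231 with the seminal vesicle score, 1 without the libraries low in Sbp, and 0 to 194 with 1 library left out. In KO against the mean of Het and WT it was 1 with no filter, 71 in DESeq2, 1 without the libraries low in Sbp, and 0 to 3 with 1 library left out. The cause was not tested. Srd5a2 ran from -2.38 to -1.81 with 1 library left out and from -3.19 to -1.79 otherwise, and passed in none of the 21 settings. Of 92 genes, 85 kept their sign in every setting that gave a value, and 16 of 1928 comparisons turned. Wnt5a was -0.15 in voom with quality weights, -0.20 with the skeletal muscle score and -1.16 with the seminal vesicle score (-0.38 to 0.52 with 1 library left out). Lef1 was 0.18 with Sbp as a covariate and 0.69 without the libraries low in Sbp (-0.86 to 0.68), Igf1r 0.025 and 0.19 (-0.51 to 0.18) and Srd5a1 0.048 without those libraries (-0.83 to 0.039). Wfdc2 was -0.047 and Col1a1 -0.30 with the seminal vesicle score, and Pecam1 -0.022 with the skeletal muscle score. The median over all genes ran from -0.01 to 0.11, highest in voom. No paired analysis was possible because the labels give no replicate numbers that the groups share. With 1 group of 3 libraries left at 2, the spread was still pooled over all libraries.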

Other observations

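Interferon-stimulated genes were partly higher in KO than in Het. Of 29 tested, 20 were higher and 9 lower (median 0.49, or 0.18 without Het library 2), 7 without overlap on the higher side (7.80% of all genes tested), and edgeR and DESeq2 called 0. Usp18, which takes the ISG15 tag off proteins, was at 7.25, 8.99 and 6.59 CPM in KO, 2.27, 5.84 and 1.71 CPM in Het and 2.14 to 2.85 CPM in WT, so the KO libraries stood above all 6 others (1.21, SE 0.49). It was 0.42 with the seminal vesicle score, 0.64 with the skeletal muscle score and 1.92 without Het library 2. Oasl1, of the oligoadenylate synthetase family, was at 3.56 to 4.66 CPM in KO, 1.33 to 2.37 CPM in Het and 2.77 to 5.41 CPM in WT (1.18, SE 0.46), so there the Het libraries stood lower. Of 28 nerve and Schwann cell genes, 16 were higher in KO (median 0.09, from -0.39 without Het library 1 to 0.73 without Het library 2).

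Genes of protein folding in the endoplasmic reticulum were divided, with 27 of 40 higher in KO (median 0.14, or 0.021 without KO library 1 and 0.27 without Het library 1), 5 without overlap above (7.80% of all genes tested) and 4 below (4.12%). Chac1, which breaks down glutathione, was at 12.1, 29.5 and 12.6 CPM in KO and 2.81, 10.02 and 10.2 CPM in Het, and higher than most of these in WT at 25.4 to 41.1 CPM (KO against Het 1.24, SE 0.51). It was 0.71 without KO library 2, 0.53 with the skeletal muscle score and 0.80 with the seminal vesicle score. All 12 mitochondrially encoded genes were lower in KO than in Het by a small amount (median -0.19) and 33 of 34 ribosomal protein genes higher (median 0.19). Without overlap, 1 mitochondrial gene lay below (4.12% of all genes tested) and 0 ribosomal protein genes lay above (7.80%). The mitochondrial median ran from -0.42 to -0.089 with 1 library left out (KO libraries 2 and 1), and the ribosomal median from 0.032 without KO library 1 to 0.33 without Het library 1. Of 28 genes of fatty acid and cholesterol synthesis 22 were lower (median -0.16, or 0.014 without Het library 3). Fdft1, squalene synthase, was at 64.6 to 74.3 CPM in KO, 92 to 116 CPM in Het and 70.0 to 76.5 CPM in WT (-0.50, SE 0.14), though it overlaps Ctsb and strand is not given. Neuroendocrine and urothelial lists had medians of 0.23 and -0.29 in KO against Het, which ran from -0.21 to 0.95 and from -0.63 to 0.16 without Het library 1 and without Het library 2, so the Het libraries differed among themselves, while their medians against WT were 1.88 and 1.10 in KO and 1.39 and 1.42 in Het, in contrasts that share the WT libraries.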
